A study of Mus musculus with 21 samples.

Results

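The genes described here encode the nuclear part of the mitochondrial respiratory chain and ATP synthase. They were taken from the deposited gene table by symbol: all rows that start with Nduf (complex I), Uqcr (complex III) or Atp5 (ATP synthase), the rows Sdha to Sdhd (complex II), and the rows that start with Cox4 to Cox8 (complex IV). This gave 92 of 24454 genes. By role, 7 encode core subunits of complex I, 29 its accessory subunits and 7 its assembly factors. Another 4 encode complex II, 8 complex III and 11 the common forms of complex IV subunits. A further 9 are complex IV forms known from some tissues or stresses, counted together with the partner Cox7a2l, which was expressed in every library. Of the ATP synthase genes, 5 encode the catalytic F1 part and 10 the stalk and the membrane part. Another 2 rows, Atp5s and Atp5sl (Dmac2l and Dmac2 in RefSeq), were taken by their symbol alone and are not counted as ATP synthase genes. The mitochondrially encoded subunits were not analysed here, since 0 genes of the table carry their prefix.

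Complexes I and II feed electrons from NADH and succinate to ubiquinone, complex III passes them to cytochrome c and complex IV to oxygen. ATP synthase uses the resulting proton gradient to make ATP. Most subunits are encoded in the nucleus and imported, a few of complexes I, III, IV and V come from mitochondrial DNA, and transcription factors such as NRF1, GABP (an ETS factor) and YY1 are known regulators of the nuclear genes.

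RNA was sequenced from mouse embryonic fibroblasts (MEFs) in 7 groups of 3 libraries, all infected with adenovirus carrying either GFP alone (+GFP) or Cre with GFP (+Cre). Rtel1 F/F cells carry floxed alleles of Rtel1, a helicase that unwinds G4-DNA and telomeric loops, and gave +GFP, +Cre and +GFP +TMPyP4 libraries, where TMPyP4 is a ligand that stabilizes G4-DNA (10 µM for the last 48 h) and collection was 96 h after infection. Rtel1 F/F cells transduced with the mutant RTEL1 C1252A/C1255A (RTEL1CA in the plots), which per the study cannot unwind telomeric loops, and Terf1 F/F cells (Trf1f/f in the labels), whose floxed gene encodes a telomere-binding protein, gave +GFP and +Cre libraries each, for which the labels do not state the time of collection. The labels name 1 Rtel1 F/F and 1 Terf1 F/F MEF line, so that line and genotype cannot be told apart, and the RTEL1 C1252A/C1255A cells derive from the former by transduction. The labels call the libraries biological replicates without saying what separates them, so the p-values measure the spread between these libraries.

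Total counts were 32069888 to 51938593 per library. Levels are given as CPM, counts scaled to library size with TMM factors. Rtel1 was at 66.2, 59.1 and 60.2 CPM in Rtel1 F/F +GFP and 29.9, 31.9 and 26.8 CPM in +Cre cells, and it was 332 ± 4.80 (mean ± SD, n = 3, as for every mean below) in RTEL1 C1252A/C1255A +GFP and 265 ± 16.3 in their +Cre cells, where the transduced gene adds to the count. Terf1 was 29.3 ± 1.21 CPM in Terf1 F/F +GFP and 0.0608 ± 0.0434 CPM in +Cre cells. All 10 fibroblast markers exceeded 1 CPM in some library, but Thy1 and Lum were near 0 in all 15 libraries on the Rtel1 F/F background (at most 0.490 and 0.111 CPM) and at 222 to 269 and 2.73 to 5.93 CPM in the 6 Terf1 F/F libraries. Lists of epithelial, endothelial, leukocyte, muscle, adipocyte and neural markers summed to at most 6.62 CPM. On the second principal component of all genes, the 3 Rtel1 F/F +GFP libraries lay at -74.9 to -56.3, apart from the other 12 libraries on that background at -29.7 to 46.5.

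Of the 92 members, 88 passed the filter on low counts. Cox7b2, Cox8b and Cox8c, forms known from testis or muscle and brown fat, had 0 counts in all 21 libraries, and Cox4i2, the form known from lung and low oxygen, had 0 to 2 counts. A count of 0 allows up to 3 counts, or 0.0935 CPM in the shallowest library, by counting error alone. Among members, levels were compared per transcript length in the deposited TPM. Atp5b, the catalytic beta subunit of F1, was the most abundant, at 1580 TPM on average over 21 libraries (range 1180 to 1950). Ndufa4, a subunit of complex IV that was first assigned to complex I, followed at 1110 TPM (689 to 1520) and Cox7c, a small subunit of complex IV, at 1060 TPM (659 to 1560). The ranges of these 3 genes overlapped. The 4 genes of complex II lay close together, at 186 TPM for Sdha, 181 for Sdhb, 199 for Sdhc and 196 for Sdhd, and their ranges overlapped too.

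Where complex IV has paired isoforms, the MEFs used the common one. Cox4i1 averaged 933 TPM against 0.0486 for Cox4i2, Cox6a1 averaged 674 TPM against 1.10 for the muscle form Cox6a2, and Cox6b1 averaged 674 TPM against 5.89 for the testis form Cox6b2. Cox7a2 averaged 430 TPM and the related assembly partner Cox7a2l 241 TPM, against 1.80 for the muscle form Cox7a1. Ndufa4 stood at 1110 TPM and Ndufa4l2, a form induced by low oxygen, at 0.333 TPM. The 3 genes Atp5g1, Atp5g2 and Atp5g3 encode the same c subunit of the membrane ring of ATP synthase and were at 237, 762 and 790 TPM. Of the genes described below, RefSeq places Atp5b at chr10:128083307-128090388, Sdha at chr13:74322255-74350240, Cox5a at chr9:57517328-57532427, Uqcrb at chr13:66900576-66905350, Uqcrh at chr4:116066965-116075070 and Cox7a2l at chr17:83501917-83514333 (GRCm38.p6). Many members have processed pseudogenes, and how the reads were shared with such copies was not tested.

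**Figure D1:**
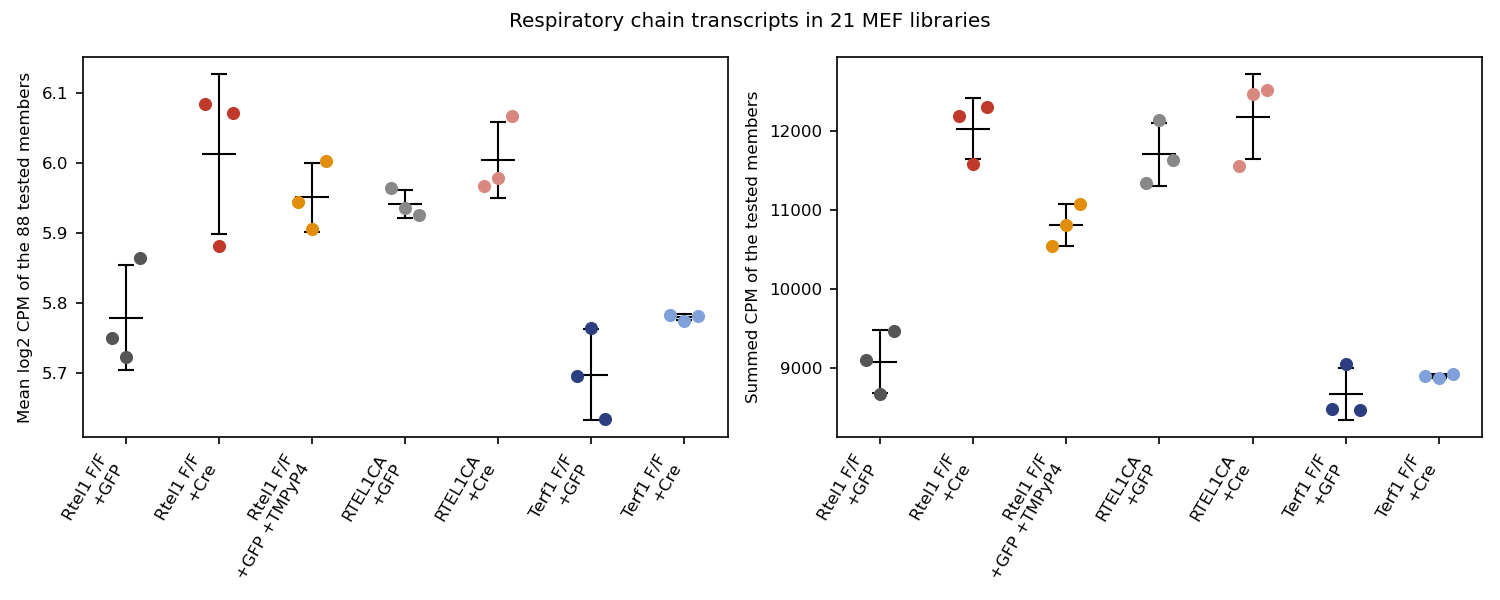
Level of the respiratory chain genes in each of 21 libraries (points), with the mean and SD of 3 libraries: left, mean log2 CPM over 88 genes, and right, their summed CPM (neither axis starts at 0). On both scales the Rtel1 F/F +GFP libraries are low among those of the Rtel1 F/F background, and summed CPM lies between 8670 and 9460 there against 11600 to 12300 in +Cre.

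The first question was whether these genes change when Rtel1 is deleted. In Rtel1 F/F cells, 40 of the 88 tested members were higher and 5 were lower in +Cre than in +GFP cells (edgeR quasi-likelihood test, Benjamini-Hochberg adjusted p of at most 0.01 over 13719 genes). Of all genes tested, which were not matched to the members by level, 22% were called higher and 21% lower. The median log2 fold change of the members was 0.33, against -0.03 for all genes. Summed over the members, the level went from 9070 ± 399 to 12000 ± 388 CPM, and the libraries of the groups did not overlap. Their summed deposited TPM went from 28800 ± 803 to 31900 ± 1110, a smaller relative rise, also with no overlap. The roles differed before any correction for GC content. In complex I 41.4% of the accessory and 28.6% of the core subunits were called higher, against 63.6% of the common subunits of complex IV. In summed deposited TPM (means ± SD of 3 libraries, with no test), common complex IV went from 7520 ± 196 to 8890 ± 293 and complex III from 2910 ± 67.6 to 3470 ± 275. Complex I was not higher on that scale, at 6760 ± 369 and 6720 ± 522 for its accessory and 1190 ± 25.5 and 1040 ± 66.9 for its core subunits, nor was complex II, at 792 ± 15.7 and 777 ± 12.1.

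Among the complex I assembly factors, 5 of 7 rose and 1 fell. Ndufaf4, an assembly factor that acts early in building the membrane arm, was at 23.2, 19.1 and 19.1 CPM in +GFP and at 44.3, 50.8 and 46.8 CPM in +Cre cells. All 3 +Cre libraries lay above all 3 +GFP libraries, and the log2 fold change was 1.21 ± 0.13 (SE, edgeR adjusted p = 3.83e-07), the largest rise of any member. Ndufaf6 was also higher, at 5.98 to 6.35 against 2.88 to 4.52 CPM (log2 fold change 0.72). Ndufaf3 moved the other way, from 4.21, 4.91 and 6.03 CPM to 2.87, 1.91 and 2.37 CPM, with no overlap and a log2 fold change of -1.08 ± 0.22 (edgeR adjusted p = 0.000379).

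Among the structural genes of complex I, 12 of 29 accessory subunits rose and 1 fell, with a median log2 fold change of 0.27. Of the 7 core subunits, 2 rose: Ndufs1, which carries iron-sulphur clusters of the NADH-oxidizing arm, by 0.50 and Ndufv2 by 0.44 on the log2 scale. The other 5 core subunits were not called, and the median of all 7 was -0.06. Among these 5, Ndufs3 (0.39) and Ndufs8 (0.27) were called higher after the correction for GC content described below. Ndufab1, which is also the mitochondrial acyl carrier protein, rose from 28, 26.2 and 26.6 CPM to 42.3, 44.6 and 41.5 CPM, a difference far above the spread of either group. Ndufv3, an accessory subunit near the NADH site, fell from 37.2, 40 and 43.2 CPM to 33.4, 24.5 and 31.9 CPM (log2 fold change -0.42 ± 0.11, edgeR adjusted p = 0.00357).

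Complex II was divided. Sdha, the flavoprotein that oxidizes succinate, was at 263, 238 and 243 CPM in +GFP and at 339, 365 and 336 CPM in +Cre cells (log2 fold change 0.48 ± 0.06, edgeR adjusted p = 1.59e-06). Sdhd, a membrane anchor, also rose, from 103 ± 3.85 to 134 ± 3.59 CPM. The iron-sulphur subunit Sdhb (log2 fold change 0.05 ± 0.12) and the other anchor Sdhc (-0.05 ± 0.09) were not called, and their libraries overlapped. After the correction for GC content described below Sdhb was called higher (0.27) and Sdhc was not called (-0.05).

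In complex III 4 of 8 subunits rose and none fell. Uqcrb, which binds near the ubiquinone site, went from 103, 96.6 and 96.6 CPM to 150, 223 and 188 CPM (log2 fold change 0.92 ± 0.21, edgeR adjusted p = 0.00111). Uqcrh, the hinge protein beside cytochrome c1, went from 99.7, 112 and 119 CPM to 179, 186 and 173 CPM (log2 fold change 0.70 ± 0.14). For both genes every +Cre library lay above every +GFP library. Uqcrc2 and the Rieske protein gene Uqcrfs1 each rose by 0.59 on the log2 scale.

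In complex IV 7 of 11 common subunits rose and none fell, with a median log2 fold change of 0.57. Cox5a, a subunit of the matrix side, was at 85.2, 75.4 and 80.5 CPM in +GFP and at 137, 190 and 143 CPM in +Cre cells (log2 fold change 0.96 ± 0.17, edgeR adjusted p = 9.56e-05). Cox7b went from 149, 137 and 152 CPM to 289, 254 and 264 CPM (0.88 ± 0.10), and Cox6c rose by 0.80. Neither Cox4i1 (0.12 ± 0.11) nor Cox6a1 (-0.02 ± 0.11) was called, so the change was not uniform within the complex in this fit. Both were called higher after the correction for GC content described below (0.54 and 0.51). Of the 5 other forms and partners tested, Cox6b2 was lower, with 48, 89 and 91 counts in +GFP and 25, 32 and 23 in +Cre libraries. Cox6a2 was also called lower, from 23, 11 and 14 counts to 4, 1 and 0, a level at which no fold is given.

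In ATP synthase 4 of 5 F1 genes and 4 of 10 stalk and membrane genes rose, and none fell. Atp5b went from 1210, 981 and 1070 CPM to 1570, 1860 and 1730 CPM (log2 fold change 0.66 ± 0.09, edgeR adjusted p = 4.77e-06). Atp5l, subunit g of the membrane part, went from 126, 130 and 142 CPM to 251, 200 and 220 CPM (0.75 ± 0.08). Of the 3 genes for the c subunit, Atp5g3 rose (0.50 ± 0.07), and Atp5g1 (0.19 ± 0.15) and Atp5g2 (0.23 ± 0.11) did not pass the test. Atp5sl (Dmac2 in RefSeq), taken by its symbol alone and not counted among these genes, fell from 9.81 ± 1.00 to 7.20 ± 0.562 CPM.

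**Figure D2:**
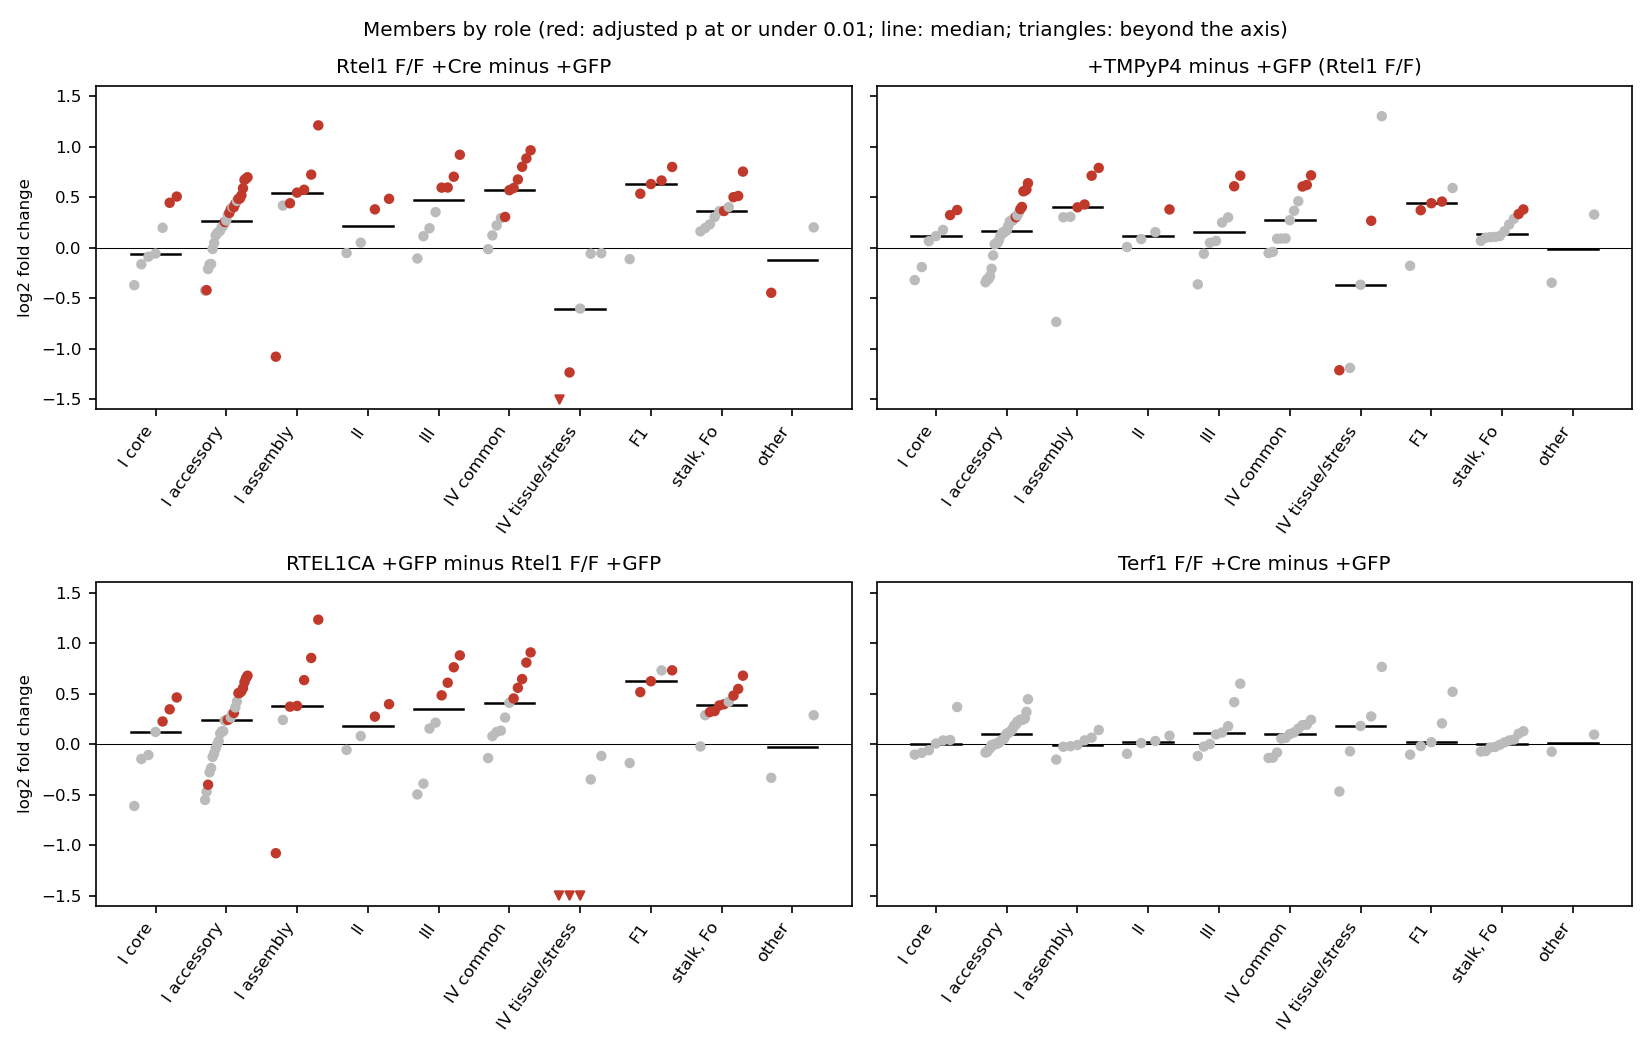
Log2 fold change of each tested member by role in 4 comparisons (red, adjusted p of at most 0.01; grey, not called; line, median of the role; triangles, values beyond the axis of 1.5). After Rtel1 loss the medians are 0.57 for common complex IV and -0.06 for core complex I subunits, RTEL1 C1252A/C1255A +GFP cells show medians of 0.41 and 0.12 for these roles against Rtel1 F/F +GFP, and no member is called in Terf1 F/F cells.

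These calls depended on the control group. RTEL1 C1252A/C1255A +GFP cells, which had received neither Cre nor TMPyP4, differed from Rtel1 F/F +GFP cells in 39 members that were higher and 5 that were lower (22.6% and 22.1% of all genes), with a median of 0.27 against -0.03. Ndufaf4 was at 42.9, 54.1 and 47.1 CPM there, Cox5a at 124, 189 and 140 CPM and Cox7b at 243, 282 and 240 CPM, all within or near the range of the Rtel1 F/F +Cre libraries and above all 3 Rtel1 F/F +GFP libraries. When the RTEL1 C1252A/C1255A +GFP libraries served as the control, 0 members were called in Rtel1 F/F +Cre cells and their median log2 fold change was 0.06. Of all genes 3.8% were then called higher and 3.95% lower. Of the named members, Ndufaf4 was then at -0.02, Atp5b at -0.07 and Cox7a2 at -0.05. The effect of Cre is thus given against a group that itself stood apart from the other untreated one. The transduced gene, the derivation of these cells and the handling of the libraries cannot be told apart as the source of the difference between the +GFP groups. Without RTEL1 C1252A/C1255A +GFP replicate 2 the count between the +GFP groups was 29 in place of 44. For fits without a library, here and below, the share of all genes is not given. Whether such falls are particular to the members was not tested. Library totals in place of TMM lowered the median of all genes from -0.03 to -0.15 between the +GFP groups. Scaled so, 26 members were higher and 8 lower, against 16.6% and 28.2% of all genes.

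**Figure D3:**
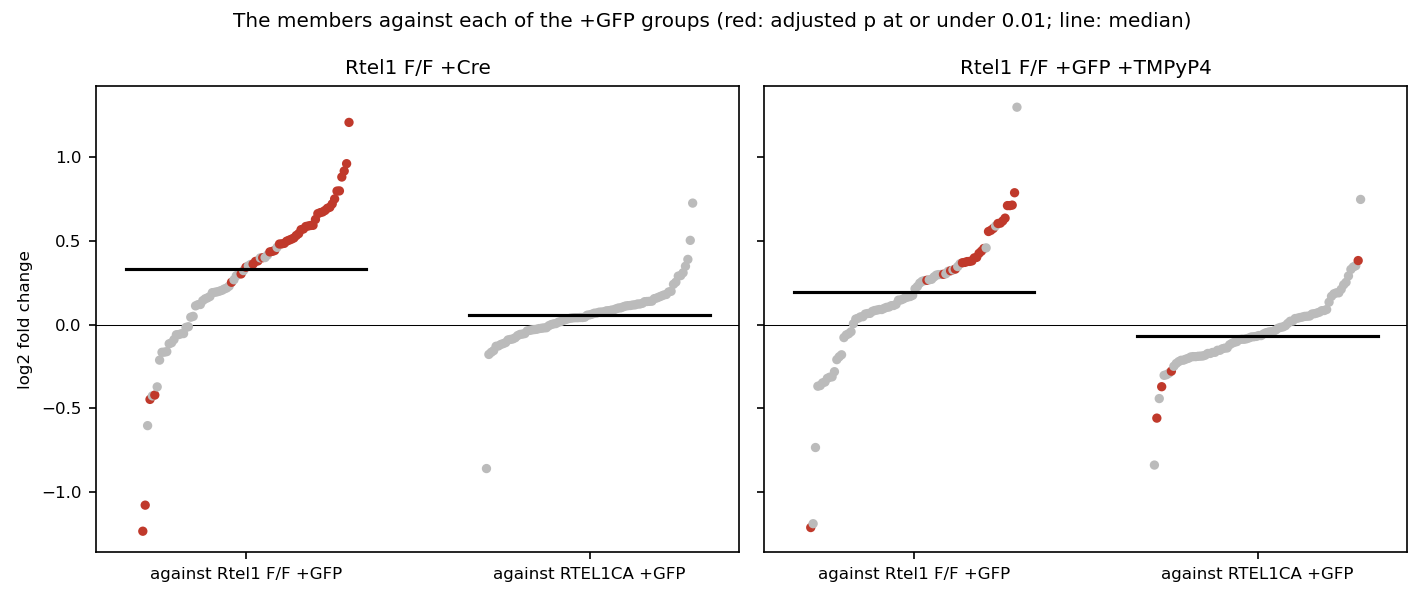
Log2 fold change of the tested members in Rtel1 F/F +Cre (left) and TMPyP4-treated (right) cells against each of the +GFP groups, sorted by value (red, adjusted p of at most 0.01; black line, median over all 88; values beyond 1.5 are left out). Against Rtel1 F/F +GFP the medians are 0.33 and 0.19, and against RTEL1 C1252A/C1255A +GFP they are 0.06 and -0.07.

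The fibroblast markers moved with the same groups. Their summed level was 19200 to 21100 CPM in Rtel1 F/F +GFP, 7340 to 10100 in +Cre, 10500 to 14100 with TMPyP4, 8480 to 12300 in RTEL1 C1252A/C1255A +GFP and 7020 to 11000 in their +Cre libraries, and 21500 to 28700 in Terf1 F/F cells. Their part in the result was not tested. In such bulk samples fewer cells of a type and less RNA per cell cannot be told apart.

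The second question was whether TMPyP4, without loss of Rtel1, changes the same genes. In Rtel1 F/F cells 25 members were higher and 1 was lower with TMPyP4 than with +GFP alone (16.6% and 13.4% of all genes, edgeR adjusted p of at most 0.01), and the median log2 fold change was 0.19 against -0.01 for all genes. This comparison uses the same +GFP libraries as the one of Rtel1 loss. Of the largest changes, Ndufaf4 was at 32.0, 36.9 and 37.0 CPM (log2 fold change 0.79 ± 0.13), Cox5a at 114, 147 and 135 CPM (0.72 ± 0.17), and Uqcrb at 127, 183 and 175 CPM (0.71 ± 0.20). Each of these libraries lay above the +GFP libraries. Ndufaf6 rose by 0.71, Sdha by 0.38, Atp5b by 0.44 and Ndufab1 by 0.64. Cox6b2, with 28, 24 and 25 counts, was the member that fell. By role, 4 of 7 complex I assembly factors, 7 of 29 accessory and 2 of 7 core subunits, 1 of 4 complex II, 2 of 8 complex III and 3 of 11 common complex IV genes rose. In ATP synthase 3 of 5 F1 and 2 of 10 stalk and membrane genes did. The summed deposited TPM of the members was 29200 ± 674 with TMPyP4 and 28800 ± 803 with +GFP alone. The libraries overlapped on that scale, at 28500 to 29900 and 28200 to 29700.

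Cox7a2l, which takes part in joining complexes III and IV, behaved unlike the rest. It was at 120, 135 and 139 CPM in +GFP, 122, 129 and 127 in +Cre and 159, 154 and 160 CPM with TMPyP4. It was higher with TMPyP4 (log2 fold change 0.27 ± 0.06, edgeR adjusted p = 0.00093) and not called after Rtel1 loss (-0.06 ± 0.06). Against RTEL1 C1252A/C1255A +GFP cells it was also higher with TMPyP4, by 0.38. Of the 6 members called against that control, it was 1 of 3 that were higher, with Cox6a2 and Ndufa4l2, both at no more than 35 counts in any library, and Uqcrh (-0.56), Cox7a2 (-0.37) and Atp5g3 (-0.28) were lower. The median was then -0.07. Without Rtel1 F/F +GFP replicate 2, the TMPyP4 count fell from 26 to 11. Scaled by library totals 17 members were higher and 4 lower with TMPyP4, against 10.9% and 18.2% of all genes.

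Compared directly, Rtel1 F/F +Cre cells had 4 members higher and 2 lower than TMPyP4-treated cells (6.13% and 9.09% of all genes). This comparison does not use the +GFP libraries. Uqcrh stood out among the 4, at 179, 186 and 173 CPM after Rtel1 loss and 102, 122 and 118 CPM with TMPyP4, which overlaps its 99.7 to 119 CPM in +GFP cells (log2 difference 0.65 ± 0.14, edgeR adjusted p = 0.00151). Atp5g3 was higher by 0.40 ± 0.07, Atp5l by 0.37 ± 0.08 and Sdhd by 0.29 ± 0.07. Cox7a2l was lower by -0.32 ± 0.06 (edgeR adjusted p = 0.000338), and Cox6a2 was lower too, with 4, 1 and 0 counts against 31, 29 and 35. Same-numbered libraries of these groups deviated together. Blocking on that number gave 7 members higher and 2 lower (8.43% and 12.2% of all genes), and adding a GC correction to the block gave 22 and 2 (16.1% and 13.8%). Without TMPyP4 replicate 1 the count was 3 in place of 6.

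**Figure D4:**
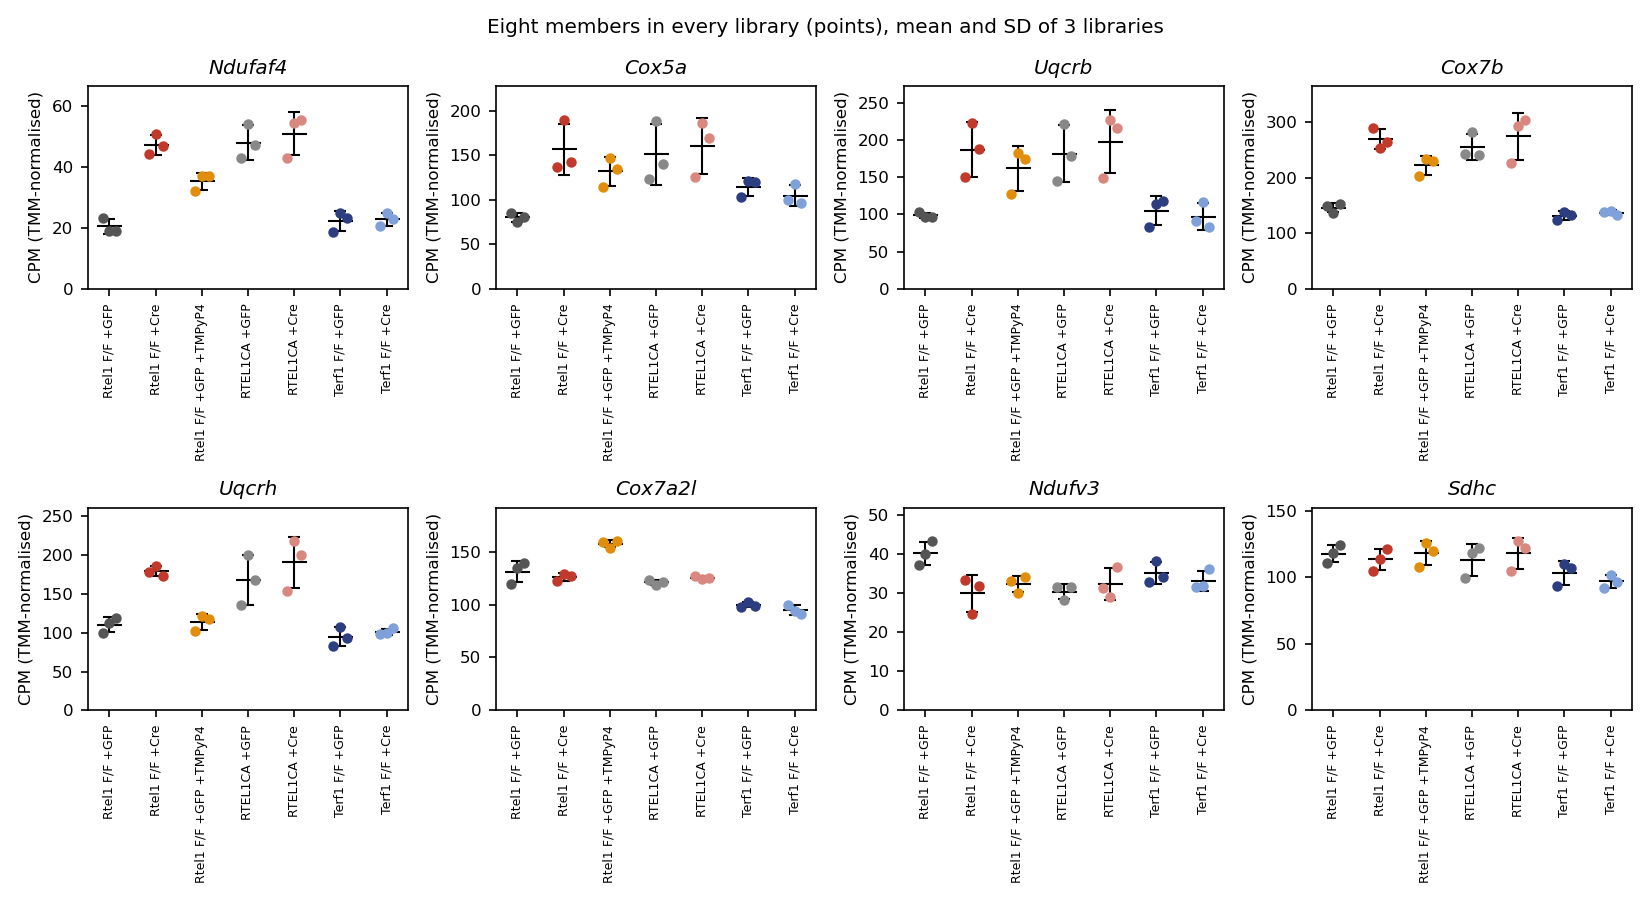
CPM of 8 members in every library (points) with the mean and SD of 3 libraries for each of 7 groups, every axis starting at 0. Every Rtel1 F/F +GFP library is under every other library on that background for Ndufaf4, Cox5a, Uqcrb and Cox7b, Uqcrh is at 114 CPM with TMPyP4 and at 179 CPM after Rtel1 loss, Cox7a2l reaches 158 CPM with TMPyP4, Ndufv3 is lower after Rtel1 loss than in +GFP cells, and the libraries of Sdhc overlap.

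The third question was whether Cre changes these genes in the RTEL1 C1252A/C1255A and Terf1 F/F cells. Cre in RTEL1 C1252A/C1255A cells gave 0 called members (0.525% of all genes higher and 0.569% lower), with a median log2 fold change of 0.06, and 7 members had an unadjusted p under 0.05. DESeq2 also called 0. The member with the smallest adjusted p (0.0644, edgeR) was Cox6b2, with 14, 15 and 22 counts in +GFP and 46, 23 and 40 in +Cre libraries. Cre in Terf1 F/F cells gave 0 called members too (2.65% of all genes higher and 0.765% lower), with a median of 0.04, 5 members with an unadjusted p under 0.05, and 0 by DESeq2. There too Cox6b2 was nearest to the threshold, with 55, 68 and 64 against 109, 96 and 110 counts (log2 fold change 0.76 ± 0.23, edgeR adjusted p = 0.0510), and its groups did not overlap. Ndufaf4 was at 22.3 ± 3.31 CPM in Terf1 F/F +GFP and 22.8 ± 2.19 CPM in +Cre cells. Few of all genes were called in either line, so 0 called members is near the share of all genes. The RTEL1 mutant was already expressed in its +GFP cells, so any effect of it before Cre is not in that comparison.

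Whether Cre acted differently in these lines was tested as an interaction. Against RTEL1 C1252A/C1255A cells, the effect in Rtel1 F/F cells was greater for 18 members and less for 1 (12.8% and 12.3% of all genes). Against Terf1 F/F cells it was greater for 20 and less for 3 (15.8% and 14.5% of all genes). The first difference was 1.13 for Ndufaf4, 0.87 for Cox5a and 0.78 for Cox7b on the log2 scale, and the second was 1.17, 1.10 and 0.82. Both rest on the Rtel1 F/F +GFP libraries as the control of the Rtel1 effect. Scaled by library totals, the first comparison had 8 members greater and 3 less, against 8.35% and 16.2% of all genes. The share of members that were greater was then near that of all genes. The first count fell to between 10 and 12 without any one of Rtel1 F/F +GFP replicates 2 or 3, +Cre replicates 2 or 3, RTEL1 C1252A/C1255A +GFP replicates 2 or 3 or +Cre replicate 1. The second fell to between 13 and 15 without any one of Rtel1 F/F +GFP replicate 2, Terf1 F/F +GFP replicate 2 or Terf1 F/F +Cre replicates 1 or 3.

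Genes next to these in the same pathway were counted from lists. Of all genes, 22% were called higher and 21% lower after Rtel1 loss. After Rtel1 loss, 4 of 5 tested genes for cytochrome c and for subunits with other symbols rose and 0 fell, with Cycs, the mobile electron carrier, highest at a log2 fold change of 1.45. Of the citric acid cycle enzymes 11 of 13 rose and 0 fell, with Suclg2 at 1.06 and Idh3a at 1.02. Of the assembly factors of complexes II to V 15 of 32 rose and 1 fell, and of the complex I assembly factors with other symbols 3 of 7 rose and 0 fell. The mitochondrial ribosomal proteins rose in 47 of 77 genes and the cytosolic ribosomal proteins in 51 of 83, with 0 falling in either list and medians of 0.43 and 0.52, above the 0.33 of the respiratory chain genes. Of 13 regulators, Tfam (0.48), Tfb2m (0.48) and Yy1 (0.46) rose and Ppargc1a, a coactivator of mitochondrial genes, fell, from 0.638 ± 0.103 to 0.231 ± 0.0448 CPM. At 23.1% higher and 7.69% lower, the share that rose was near that of all genes. Nrf1 (-0.15) and Gabpa (0.30) were not called.

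The same lists were counted in the other comparisons. Of all genes, 16.6% were higher and 13.4% lower with TMPyP4, and 22.6% and 22.1% between the +GFP groups. For Cre these shares were 0.525% and 0.569% in RTEL1 C1252A/C1255A and 2.65% and 0.765% in Terf1 F/F cells. With TMPyP4 against +GFP, 9 of 13 citric acid cycle enzymes, 23 of 77 mitochondrial and 49 of 83 cytosolic ribosomal proteins rose, 0 fell in any of these lists, and Ppargc1a was again called lower. Between the untreated RTEL1 C1252A/C1255A and Rtel1 F/F +GFP cells, 12 of 13, 47 of 77 and 50 of 83 were higher. Cre gave 0 calls in these 3 lists in RTEL1 C1252A/C1255A cells, and in Terf1 F/F cells 1, a cytosolic ribosomal protein. So few calls are near the shares of all genes. Cox18, an assembly factor of complex IV, was also called in Terf1 F/F cells.

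GC content and replicate number were checked as technical properties. The tested members had a median transcript GC content of 51.4%, against 50.4% for all genes tested, and a median transcript length of 850 against 2876 bases. Their median level was 79 CPM, against 26.5 CPM for all genes tested. Level and log2 fold change after Rtel1 loss correlated with Spearman's rho = 0.32 in the members and 0.22 over all genes. The shares of all genes given here are thus not matched to the members by level. Members of low GC content rose more often. Among the 44 members at or under the median GC content, 32 were higher and 0 lower after Rtel1 loss, and among the 44 above it 8 were higher and 5 lower. Across the 88 members, GC content and log2 fold change correlated with Pearson's r = -0.51 and Spearman's rho = -0.67 after Rtel1 loss and with -0.57 and -0.66 after TMPyP4 (a description over genes that share the same libraries). Over all genes rho was -0.33 for Rtel1 loss. Of all genes in the middle range of the members' GC content (48.6% to 54.7%), 21.2% were higher and 24.9% lower.

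A loess correction of each library for GC content raised the count after Rtel1 loss from 45 to 61 members, 58 of them higher, while the share of all genes called rose to 28.7% higher and 21.3% lower. The median of the members less that of all genes was 0.362 with the correction and 0.367 without it. The members above the median GC content then had 24 higher and 3 lower, with a median of 0.35, and those at or under it 34 and 0, with 0.47. Ndufaf4 kept its rise (1.02), and Cox4i1 (0.54), Cox6a1 (0.51) and Cox8a (0.83) were then called higher. So were Sdhb (0.27) and the core complex I subunits Ndufs3 (0.39) and Ndufs8 (0.27). Ndufv3 (-0.12) and Atp5sl (-0.22) were no longer called, while Ndufaf3 (-0.80) still was. Between the +GFP groups the correction gave 53 members higher and 3 lower, against 29.1% and 22.3% of all genes. There the median of the members less that of all genes was 0.332 with the correction and 0.299 without it, so this difference was not reduced.

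The library numbered 2 had the lowest count-weighted GC content in every group but Rtel1 F/F +GFP and Terf1 F/F +GFP. It was 48.6% in Rtel1 F/F +Cre and 48.7% in both RTEL1 C1252A/C1255A groups, against a mean of 49.9% in Rtel1 F/F +GFP. Replicate 2 of the Rtel1-deleted cells also had the lowest mean level of the members in its group, 5.88 log2 CPM against 6.09 and 6.07. With the libraries numbered 1 and 3 alone, an alternative chosen after seeing the data that leaves 2 per group, 27 members were higher and 1 lower after Rtel1 loss and 7 higher and 0 lower with TMPyP4, with medians of 0.31 and 0.21. Of all genes, 13.9% and 14% were then called higher and lower after Rtel1 loss, and 6.75% and 6.14% with TMPyP4.

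**Figure D5:**
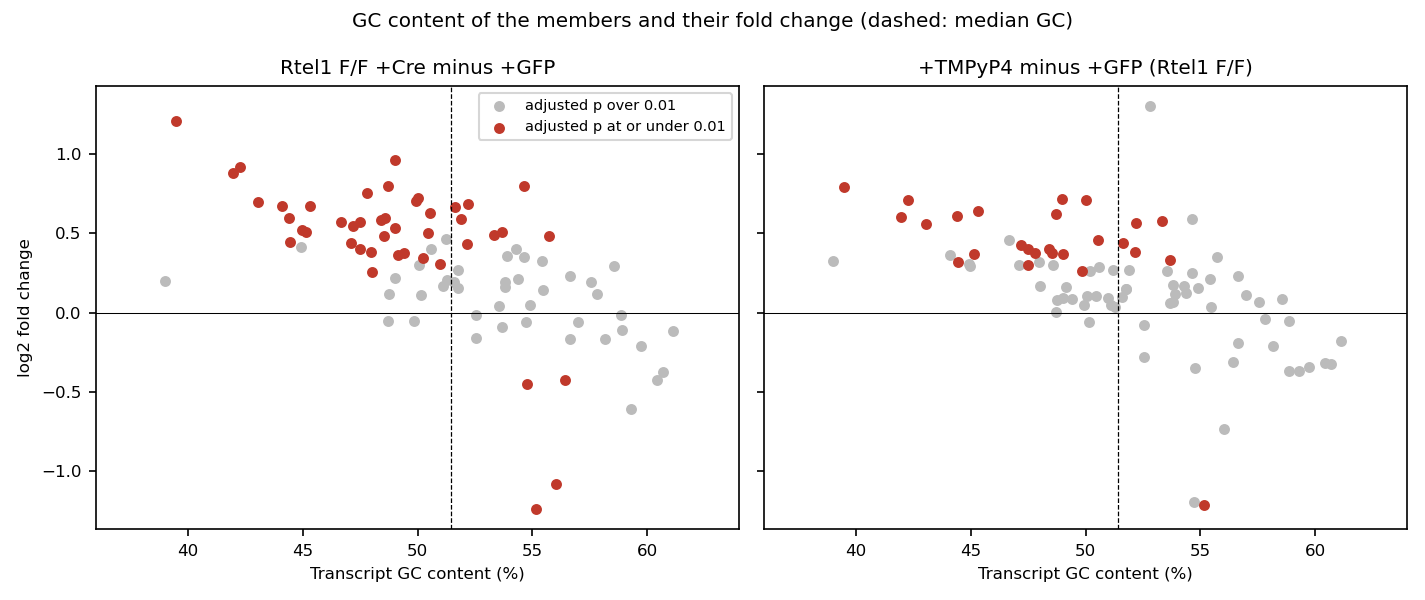
Transcript GC content in percent and log2 fold change of the members after Rtel1 loss (left) and TMPyP4 treatment (right), with called members in red, a dashed line at the median GC content of 51.4%, and Cox6a2 beyond the left axis. Called rises gather at low GC content, with 32 of 44 members on that side called higher on the left and 20 of 44 on the right.

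Because the study concerns G4-DNA, the 250 bases before the start site were searched for sequences that can form it and for sites of the regulators named above. RefSeq promoters of GRCm38.p6, the assembly that mm10 names, were found for 76 of the 92 members. A G4-forming sequence was taken as 4 runs of GGG separated by 1 to 7 bases. It was found in 14 members (18.4%), against 28.6% of 10830 genes tested and 18.5% of 27025 genes of the promoter table. In the members the runs of G were on the strand of the gene in 1 (1.32%) and on the opposite strand in 13 (17.1%), against 15.7% and 15.5% of genes tested. These shares are descriptions without a test. The study predicted G4 structures with another method, G4Hunter, and over a wider distance from the start site. Its shares therefore cannot be set beside these. Of the 34 members with a promoter that rose after Rtel1 loss, 8 held a G4-forming sequence, and of 40 that did not, 6 did.

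The NRF1 motif (GCGC, any 2 bases, GCGC) was in 16 members (21.1%), against 11.7% of genes tested and 5.64% of the table. The ETS motif CCGGAAG was in 13 (17.1%), against 15.2% and 7.83%, and the YY1 motif AAGATGG in 2 (2.63%), against 5.04% and 5.18%. Both strands were searched, and no match says only that these letters are absent from this window. At least 1 of these 3 motifs was in 16 of the 34 members that rose and in 11 of the 40 that did not. Promoters of 4 members are given 5′ to 3′ on the strand of the gene, with motif matches in capitals. They are Ndufaf4 and Cox7b, 2 of the 4 largest rises, Ndufb4, the largest rise among members with a G4-forming sequence, and Ndufv3, which fell. Ndufb4 was added after its values were seen. Not shown are Cox5a, another of the 4 largest rises, with no match, and Atp5sl, which fell. Atp5sl holds a YY1 match at 53 to 47 bases before 1 of its listed start sites.
Ndufaf4, chr4:24897833-24898082, plus strand: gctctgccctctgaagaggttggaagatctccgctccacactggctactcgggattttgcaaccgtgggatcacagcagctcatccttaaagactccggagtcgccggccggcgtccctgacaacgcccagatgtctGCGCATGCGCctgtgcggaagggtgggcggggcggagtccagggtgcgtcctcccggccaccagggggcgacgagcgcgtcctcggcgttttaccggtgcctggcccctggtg
Ndufb4, chr16:37654369-37654618, minus strand: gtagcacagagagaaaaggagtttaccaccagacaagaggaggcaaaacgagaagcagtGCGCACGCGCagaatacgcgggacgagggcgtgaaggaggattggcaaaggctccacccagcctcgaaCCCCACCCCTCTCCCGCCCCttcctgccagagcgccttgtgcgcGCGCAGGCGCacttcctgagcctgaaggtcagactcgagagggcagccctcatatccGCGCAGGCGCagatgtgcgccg
Cox7b, chrX:106015450-106015699, plus strand: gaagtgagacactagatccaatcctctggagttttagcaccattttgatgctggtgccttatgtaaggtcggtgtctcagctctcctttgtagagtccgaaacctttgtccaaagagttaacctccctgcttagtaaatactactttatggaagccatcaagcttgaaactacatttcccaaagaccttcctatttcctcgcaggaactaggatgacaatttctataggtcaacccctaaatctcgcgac
Ndufv3, chr17:31519865-31520114, plus strand: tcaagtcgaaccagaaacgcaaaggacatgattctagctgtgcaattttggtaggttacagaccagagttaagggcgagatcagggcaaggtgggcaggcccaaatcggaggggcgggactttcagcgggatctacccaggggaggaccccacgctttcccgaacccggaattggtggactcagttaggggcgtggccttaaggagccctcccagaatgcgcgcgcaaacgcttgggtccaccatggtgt

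Ndufaf4 holds 1 NRF1 match, at 113 to 104 bases before its start. Ndufb4 holds 3, at 191 to 182, 79 to 70 and 22 to 13 bases, and its G4-forming sequence lies at 123 to 104 bases with the G runs on the opposite strand, so that they read as runs of C above. Ndufb4, an accessory subunit of complex I, was at 30.5, 32.4 and 37.7 CPM in Rtel1 F/F +GFP and at 60, 44.2 and 57.1 CPM in +Cre cells, with no overlap (log2 fold change 0.68 ± 0.12, edgeR adjusted p = 8.61e-05). It was at 49.1, 57.0 and 52.0 CPM in RTEL1 C1252A/C1255A +GFP cells. Cox7b and Ndufv3 hold none of the 4 motifs in this window, and they moved in opposite directions.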

How the data were processed

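Members and gene lists were chosen with earlier results of these data known. Per the labels and the study's methods, polyA libraries were read on 1 end. Trimming (cutadapt 1.9.1), alignment (STAR 2.5.2a) and quantification (RSEM 1.3.0) on RefSeq genes of mm10 are named by the submitters' notes, and the authors deposited expected counts that were not normalized (0 were not whole numbers, so rounding changed nothing). The authors also deposited TPM, used here to compare levels between genes. Labels and methods differ on read length and serum.

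Counts were fitted in R 4.3.3 with edgeR 4.0.16 (TMM, filterByExpr by group, robust quasi-likelihood, 21 libraries, 14 residual degrees of freedom, two-sided tests, adjusted p of at most 0.01 over 13719 genes, 88 of them members). The study used DESeq2. Here DESeq2 1.42.0 and its size factors, library totals, other filters, only the groups compared, a replicate block, a loess GC correction (span 0.3), an adjusted p of at most 0.05, each library left out and another control were alternatives. The libraries numbered 1 and 3 alone were added after seeing the data. The fit was tested on simulated data. No 2 libraries shared over 0.826% of counts (genes over 20 counts). With at least 32069888 counts per library, 3 counts are 0.0935 CPM or less.

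Named genes were the targeted genes, complex II, isoform genes, the 4 largest called rises and falls per comparison at 5 CPM or more, and the 3 highest by TPM. Other members named were chosen after their values were seen. Pairing by number was taken to hold where all 3 correlations of same-numbered deviations over 11840 genes exceeded 0.1. That was so for RTEL1 C1252A/C1255A +Cre and +GFP (0.864, 0.839 and 0.424) and for Rtel1 F/F +Cre and TMPyP4 (0.724, 0.758 and 0.409), and not for Rtel1 F/F +Cre and +GFP (-0.0172, 0.0580 and 0.131). GC content and length came from GENCODE transcripts and promoters from RefSeq. Figures were drawn with matplotlib.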

Additional observations from a re-analysis of the deposited data

Results flagged for a closer look

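The effect of Cre on the respiratory chain genes differed between lines by the test of the difference itself (edgeR, adjusted p of at most 0.01). Against RTEL1 C1252A/C1255A cells it differed in 19 members, with a greater effect in Rtel1 F/F cells for 18 (20.5%) and less for 1 (1.14%). The shares of all genes were 12.8% and 12.3%, so only the share that was greater exceeded that of all genes. On the log2 scale the effect in Rtel1 F/F cells exceeded theirs by 1.13 for Ndufaf4, 0.87 for Cox5a, 0.78 for Cox7b, 0.64 for Atp5l, 0.64 for Atp5b, 0.50 for Cox7a2 and 0.45 for Sdha, and the difference was -2.23 for Cox6b2.

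Against Terf1 F/F cells it differed in 23 members, 20 greater (22.7%) and 3 less (3.41%). The shares of all genes were 15.8% and 14.5%, so here too only the share that was greater exceeded that of all genes. The difference was 1.17 for Ndufaf4, 1.10 for Cox5a, 1.04 for Uqcrb, 0.82 for Cox7b, 0.68 for Atp5b, 0.63 for Atp5l, 0.47 for Sdha and 0.46 for Atp5g3, and it was -0.54 for Atp5sl and -2.00 for Cox6b2. Both tests share the Rtel1 F/F +GFP libraries, and whether those libraries or the effect of Cre set these differences was not tested.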

How the results depend on the processing

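In RTEL1 C1252A/C1255A and Terf1 F/F cells, 0 members were called for Cre under all alternatives run. Few of all genes were called there in the main fit. The shares were 0.525% higher and 0.569% lower in the former and 2.65% and 0.765% in the latter. After Rtel1 loss the count stayed between 35 and 44 when each library was left out, and the medians of the members kept their sign under every alternative but one, the other control. With RTEL1 C1252A/C1255A +GFP as that control, 0 members were called after Rtel1 loss (median 0.060) and 6 with TMPyP4 (median -0.066, with 9.94% of all genes higher and 7.07% lower). Among named genes called against at least one of the controls, the log2 fold change after Rtel1 loss then turned for Atp5b (-0.07), Cox6b2 (0.73), Cox7a2 (-0.05), Ndufaf4 (-0.02) and Ndufaf6 (-0.13). With TMPyP4 it turned for Atp5b (-0.29), Atp5g3 (-0.28), Atp5l (-0.30), Cox5a (-0.19), Cox6b2 (0.75), Cox7a2 (-0.37), Cox7b (-0.20), Ndufaf4 (-0.44), Ndufaf6 (-0.14), Sdha (-0.02), Uqcrb (-0.17), Uqcrh (-0.56) and Rtel1 (-2.20), where the vector copy is counted in that control, and a fitted value of 4.62 for Ndufa4l2 rests on 0 counts in it and is no bound. A further 8 named genes in each comparison, called against neither control, also changed sign.

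Library totals lowered the median of all genes after Rtel1 loss from -0.03 to -0.14 (2351 genes higher and 3684 lower, against 3015 and 2887). The members' medians were then 0.230 after Rtel1 loss, 0.094 with TMPyP4 and 0.151 between the +GFP groups. For the Cre effect of the Rtel1 F/F line less that of RTEL1 C1252A/C1255A and of Terf1 F/F cells they were 0.108 and 0.183. In the former 11 members were called, with 8.35% of all genes greater and 16.2% less.

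With the GC correction the medians were 0.265 with TMPyP4, 0.376 between the +GFP groups, and 0.372 and 0.396 for those differences in the effect of Cre (34 and 35 members called, the latter 34 greater and 1 less), and 12 members were called between Rtel1 loss and TMPyP4. The shares of all genes were 19.6% greater and 13.5% less for the first difference and 22.2% and 15.1% for the second. Between Rtel1 loss and TMPyP4 they were 11.9% higher and 11.1% lower. Cox6a1 turned to 0.51 after Rtel1 loss and 0.46 between the +GFP groups.

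The replicate block gave 42 members with TMPyP4 and 36 and 40 for the differences in the effect of Cre, although same-numbered Rtel1 F/F +GFP libraries were not shown to pair with the others. Between the groups that paired it is given beside the result, and 0 members were called in RTEL1 C1252A/C1255A cells with it. The block called 21.1% of all genes higher and 18.6% lower with TMPyP4. For the differences these shares were 17.1% and 16.4% in the first and 19.7% and 20.7% in the second. The block with the GC correction gave 52 members with TMPyP4 (25.8% of all genes higher and 19.5% lower, members' median 0.264). Between Rtel1 loss and TMPyP4 it gave 24 (16.1% and 13.8%). For the differences in the effect of Cre it gave 53 (24.6% and 16.1%) and 57 (27% and 18.3%), with medians of 0.373 and 0.394. Between the +GFP groups the median with it was 0.370. Under it Cox6a1 turned to 0.50 after Rtel1 loss and 0.44 between the +GFP groups, Cox4i1 to 0.26 with TMPyP4 and to 0.41 and 0.46 for those differences, Sdhb to 0.24 for the second of them, and Atp5g2 to 0.35 between the +GFP groups.

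At an adjusted p of at most 0.05, 10 members were called between Rtel1 loss and TMPyP4 (10.9% of all genes higher and 14.2% lower). For the differences 36 (19% and 19.1%) and 41 (22.1% and 20.9%) were called. In fits of only the groups compared, 3 were called between Rtel1 loss and TMPyP4 (2.9% of all genes higher and 4.56% lower). For the difference from RTEL1 C1252A/C1255A cells 9 were called, against 8.17% of all genes greater and 8.7% less. The libraries numbered 1 and 3 alone, added after seeing the data, gave 28 members after Rtel1 loss and 7 with TMPyP4. Between Rtel1 loss and TMPyP4 they gave 3 (2.4% of all genes higher and 4.83% lower), and between the +GFP groups 22 (14.3% and 14.4%). For the differences they gave 4 (3.9% and 4.98% of all genes) and 7 (5.85% and 7.3%).

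Leaving out each library gave 11 to 26 members with TMPyP4, 3 to 5 between Rtel1 loss and TMPyP4, 29 to 49 between the +GFP groups (median 0.252 to 0.339), and 10 to 26 and 13 to 28 for the differences. The shares of all genes in those fits are not given, so whether the counts changed more for the members was not tested. Of 4606 values of named genes, 4220 stayed on their side of the threshold, 203 of these with a change of sign and no call under either setting, 192 were no longer called, 166 became called and 28 turned while called under at least one setting. The cause of these changes was not tested.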
